A study of Mus musculus with 16 samples.

Results

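The genes described here encode the proteasome and the proteins that build and cap it, measured in mouse liver. Every gene whose symbol starts with Psm, a letter from a to g and a number was taken, which gave 50 of the 19935 genes measured. The rule reads symbols only, and it was set with earlier results of these data known. The symbols fall into 8 core alpha and 8 core beta subunits, 5 interferon-induced subunits, 6 base ATPases, 3 other base subunits, 8 lid subunits, 7 assembly chaperones and 3 other regulators. Psmc3ip and Psme3ip1 match by their letters only and are not subunits of the particle. They stay in every count of the 50.

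The study asked how livers without the nuclear receptor PPARβ/δ (gene Ppard) and livers with it differ, and how each responds to food withdrawal. RNA from 3 fasted knockout, 4 fed knockout, 5 fasted wild-type and 4 fed wild-type mice was hybridised to 16 Affymetrix whole-transcript arrays, 1 per mouse. The mice were males of a mixed Sv129 and C57Bl/6 background, fasted mice had gone 24 h without food, and all were anaesthetised with isoflurane, nitrous oxide and oxygen before death. No cell type restriction of the knockout is stated; the deleted stretch of the gene and the age of the mice were not given in the sources used here. Arrays were labelled biological replicates and showed no missing value and no identical pair. Their number limits the precision of each value.

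The proteasome is the protease that degrades ubiquitin-tagged proteins. Its core is a barrel of alpha rings, which gate the entry, around beta rings, which hold the cutting sites; the regulatory particle on its ends binds ubiquitin, removes it and unfolds the protein with a ring of ATPases. Interferon induces catalytic subunits that take the place of the constitutive ones and a separate cap, and that form of the particle is best known for making peptides for MHC class I molecules, including in the resident immune cells of the liver.

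All levels below are log2 of the deposited probe set intensity, and all differences are log2 differences from 1 limma fit of the 4 groups over all 19935 genes, with their standard errors (SE). A member is called changed at a Benjamini-Hochberg adjusted p under 0.05, adjusted over all genes, in limma's two-sided test. Levels of different members come from different probe sets and are not set against each other. In whole liver, fewer cells of a type and less RNA per cell cannot be told apart. Of the 50 members, 48 lay above the dim limit, a log2 mean of 2.79 that 40% of all genes fall under; Psmb11, the thymus form, and Psmc3ip did not.

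Over both genotypes together, fasting lowered 4 of the 5 interferon-induced subunits, though in wild-type mice alone none of the 5 was called. The 95% intervals of the 14 standard core and 17 regulatory particle genes lay within a 1.5-fold change over both genotypes. Even so, 3 of the 14 standard core genes were called there. Averaged over both genotypes, 10 members changed with fasting, 2 upwards and 8 downwards, which is 4 of the 5 interferon-induced subunits, 4 of the 8 core alpha subunits, 2 of the 7 assembly chaperones and none of the 8 core beta, 17 regulatory particle or 3 other regulator genes. Over all genes, 10.9% changed in that comparison, 4.48% upwards and 6.39% downwards. Of the 11961 genes at or above the dim limit, 2088 changed, 859 upwards and 1229 downwards. The median difference of the 50 members was -0.034, against 0.0035 over all genes and -0.0095 over the 11961 at or above the dim limit, and that of the interferon-induced subunits was -0.44. The 2 members that rose were Psmd9, a chaperone of the ATPase ring, and Psma7, a core alpha subunit.

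**Figure D1:**
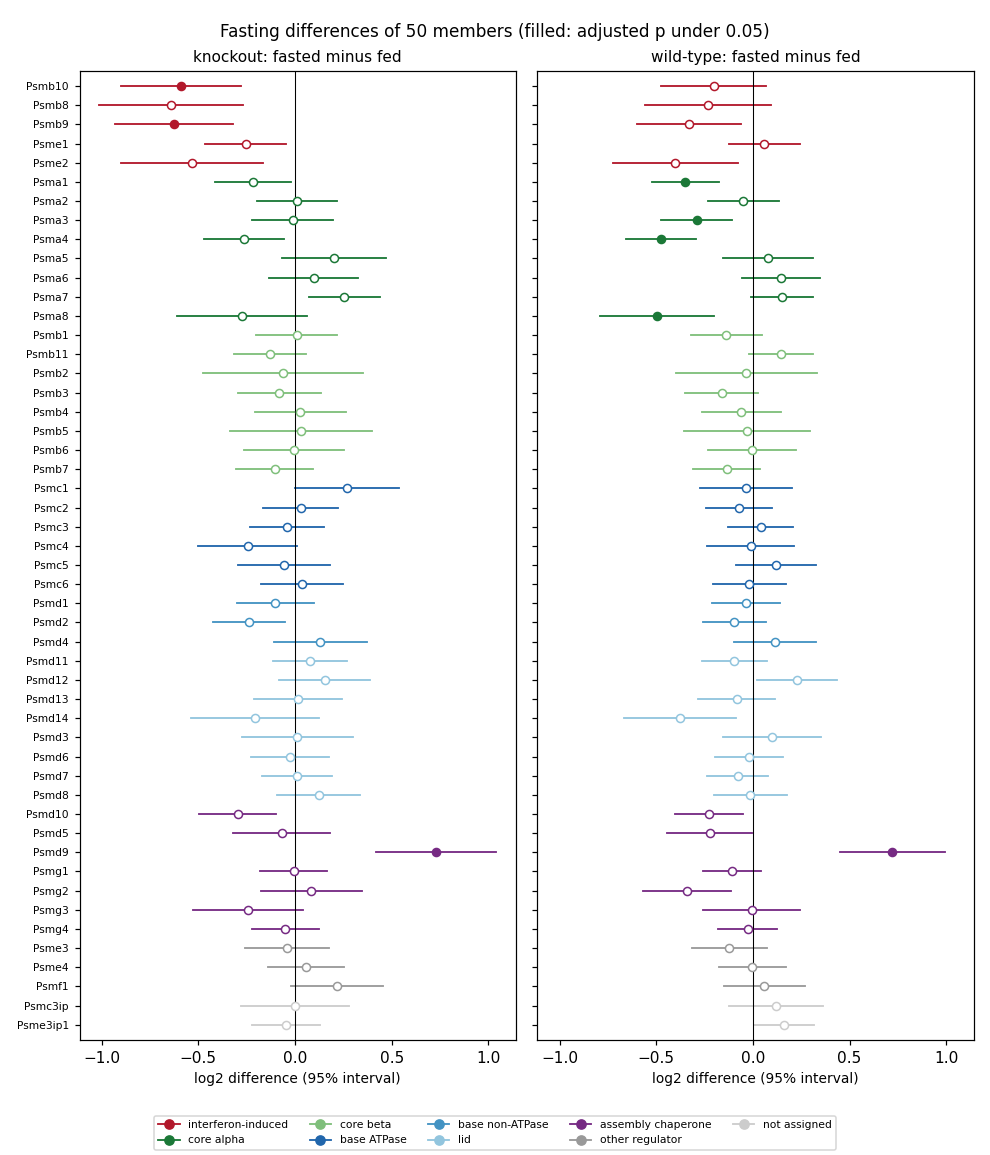
Log2 difference between fasted and fed mice for the 50 members, in knockout mice (left) and wild-type mice (right), ordered and coloured by role. Points are limma estimates, lines are 95% intervals and filled points have an adjusted p under 0.05. The 5 interferon-induced subunits lie between -0.64 and -0.26 in knockout mice, Psmd9 stands at 0.73 and 0.72, and most others lie close to 0.

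Psmb8, Psmb9 and Psmb10 are the interferon-induced catalytic subunits, and Psme1 and Psme2 form the interferon-induced cap. In knockout mice all 5 lay lower in every fasted mouse than in every fed mouse. Without overlap, 10 of the 50 members were lower there and 4 higher, beside 7.05% and 6.17% of all genes. The test called 3 of the 50 members changed there, the fallen Psmb9 and Psmb10 and the risen Psmd9, beside 3.67% of all genes, 1.87% upwards and 1.8% downwards. Of the 11961 genes at or above the dim limit, it called 706. The promoters of the 5 are shown because these genes lay lower in the same livers. Each run has 250 bases before and 50 after the start of transcription, on the gene's own strand, from RefSeq's table for the build GRCm38.p6.
Psmb8, chr17:34197945-34198244, plus strand: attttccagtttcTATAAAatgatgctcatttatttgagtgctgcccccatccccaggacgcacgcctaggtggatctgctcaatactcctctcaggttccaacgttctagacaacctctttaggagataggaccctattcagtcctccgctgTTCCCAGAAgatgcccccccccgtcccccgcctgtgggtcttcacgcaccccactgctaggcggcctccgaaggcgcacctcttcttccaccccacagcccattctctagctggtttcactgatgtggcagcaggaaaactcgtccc
Psmb9, chr17:34187281-34187580, minus strand: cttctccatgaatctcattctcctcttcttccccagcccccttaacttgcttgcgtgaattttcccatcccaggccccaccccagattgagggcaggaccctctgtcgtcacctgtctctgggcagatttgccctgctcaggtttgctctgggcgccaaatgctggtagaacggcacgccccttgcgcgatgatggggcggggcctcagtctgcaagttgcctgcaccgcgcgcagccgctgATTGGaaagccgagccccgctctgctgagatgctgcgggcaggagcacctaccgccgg
Psmb10, chr8:105938343-105938642, minus strand: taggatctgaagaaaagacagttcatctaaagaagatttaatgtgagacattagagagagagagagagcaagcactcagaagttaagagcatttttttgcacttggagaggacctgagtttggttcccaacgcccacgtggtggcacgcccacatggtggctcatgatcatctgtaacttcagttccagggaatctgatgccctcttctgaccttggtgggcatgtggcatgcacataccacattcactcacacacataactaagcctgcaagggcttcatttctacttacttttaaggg
Psme1, chr14:55578244-55578543, plus strand: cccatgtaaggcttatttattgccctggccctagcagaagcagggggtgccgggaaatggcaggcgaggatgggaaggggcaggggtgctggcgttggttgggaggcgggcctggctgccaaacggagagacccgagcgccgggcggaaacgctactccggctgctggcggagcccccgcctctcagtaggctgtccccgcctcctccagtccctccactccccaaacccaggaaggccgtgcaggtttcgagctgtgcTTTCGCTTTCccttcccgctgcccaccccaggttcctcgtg
Psme2, chr14:55591052-55591351, minus strand, the most upstream of 2 starts in the table: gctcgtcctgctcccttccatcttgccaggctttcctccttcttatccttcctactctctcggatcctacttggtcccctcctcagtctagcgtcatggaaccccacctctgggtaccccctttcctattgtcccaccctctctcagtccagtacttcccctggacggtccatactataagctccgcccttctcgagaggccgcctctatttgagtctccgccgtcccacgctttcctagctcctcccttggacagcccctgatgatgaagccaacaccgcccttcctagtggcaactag
Capitals mark matches to the 9 short motifs searched on both strands. They were TTCNNNGAA, a form of the site through which interferon-gamma signalling acts, and its palindromic form TTCCNGGAA; the letters GAAA repeated after a gap of 2 bases, an interferon-response-like form; TGACNNNGC, the core of the antioxidant response element; CCAAT, a box near many promoters; the core bound by ETS factors, which reads CCGGAAG; the usual TATAAA box; and the full proteasome antioxidant element and the nuclear respiratory factor element. TTCCNGGAA overlaps TTCNNNGAA, and the full antioxidant element overlaps TGACNNNGC. In Psmb8 the capitals are TTCCCAGAA, a match to TTCNNNGAA with its first base at -97 from the start, and TATAAA at -237. Psmb9 has ATTGG, the reverse complement of CCAAT, and Psme1 has TTTCGCTTTC, the interferon-response-like form on the opposite strand. Psmb10 and Psme2 hold none of the 9 in these windows. TTCNNNGAA is in the promoters of 9.55% of all genes in the table and the interferon-response-like form in 3.99%, so a match only describes the letters.

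Psmb9, which replaces Psmb6, read 5.41, 5.39 and 5.25 in knockout fasted mice, against 6.12, 6.31, 5.70 and 5.79 in knockout fed mice. It read 5.66, 5.51, 5.74, 5.26 and 5.27 in wild-type fasted mice, against 5.85, 5.98, 5.74 and 5.69 in wild-type fed mice. The knockout groups did not overlap, with fed mice 1 and 2 well above fed mice 3 and 4, while the wild-type groups overlapped. The fasting difference was -0.63 ± 0.14 (SE; limma adjusted p = 0.0207) in knockout mice and -0.33 ± 0.13 (adjusted p = 0.123) in wild-type mice. Over both genotypes Psmb9 fell by 0.48 ± 0.10 (adjusted p = 0.00288). The knockout call was lost without knockout fed mouse 1 or without any single knockout fasted mouse, with differences of -0.72 to -0.52 and adjusted p of up to 0.104 over all 16 single omissions, and the call over both genotypes held in all 16. With the knockout groups alone in the fit, the knockout call was also lost (adjusted p = 0.0675).

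Psmb10, which replaces Psmb7, read 5.41, 5.66 and 5.64 in knockout fasted mice, against 6.27, 6.41, 5.75 and 6.22 in knockout fed mice. It read 5.32, 5.47, 5.90, 5.44 and 5.65 in wild-type fasted mice, against 5.81, 5.64, 5.89 and 5.70 in wild-type fed mice. Of the knockout fed mice, 3 stood above all other 13 mice and the remaining one stood close to the fasted mice. The difference was -0.59 ± 0.15 (adjusted p = 0.0325) in knockout mice, -0.20 with adjusted p = 0.371 in wild-type mice, and -0.40 ± 0.10 (adjusted p = 0.013) over both. The knockout call was lost without knockout fed mouse 1, 2 or 4 or without any single knockout fasted mouse, with differences of -0.73 to -0.51 and adjusted p of up to 0.15. With the knockout groups alone in the fit it was lost too (adjusted p = 0.0928). The call over both genotypes held in all 16 single omissions.

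Psmb8, which replaces Psmb5, read 5.07, 4.87 and 4.87 in knockout fasted mice, against 5.59, 5.79, 5.51 and 5.43 in knockout fed mice. It read 5.39, 5.22, 5.50, 4.94 and 4.66 in wild-type fasted mice, against 5.75, 5.14, 5.38 and 5.23 in wild-type fed mice. Wild-type fasted mice spanned most of the range of all 16. The difference was -0.64 ± 0.18 in knockout mice, which missed the threshold with an adjusted p of 0.0524 (0.0205 with the knockout groups alone in the fit), and -0.23 (adjusted p = 0.395) in wild-type mice. The knockout fall also passed under quantile normalization, without dim genes, with an intensity trend and robust variance, with array weights and with a replicate block. It missed the threshold with arrays centred, with a gene's median probe set value and with every probe set. Of the 16 single omissions it passed in 4, with adjusted p of 0.022 to 0.177 over all 16. Over both genotypes Psmb8 fell by 0.44 ± 0.12 (adjusted p = 0.021), a call lost without knockout fasted mouse 2 or 3, with an adjusted p of up to 0.0572.

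Psme2, the beta subunit of the interferon-induced cap, read 6.73, 6.69 and 6.86 in knockout fasted mice, against 7.50, 7.55, 6.995 and 7.12 in knockout fed mice. It read 6.44, 6.90, 6.998, 6.69 and 6.47 in wild-type fasted mice, against 7.52, 6.84, 7.13 and 6.91 in wild-type fed mice. The wild-type groups overlapped, with 1 fed mouse standing high. The differences, -0.53 (adjusted p = 0.116) in knockout and -0.40 (adjusted p = 0.121) in wild-type mice, each missed the threshold, and over both genotypes Psme2 fell by 0.47 ± 0.12 (adjusted p = 0.0135), a call that held in all 16 single omissions. A further probe set, which carries the symbols of Psme2 and Psme2b together and was therefore not used for either, had differences of -0.51 and -0.66 in knockout and wild-type mice.

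Psme1, the alpha subunit of that cap, read 7.63, 7.37 and 7.44 in knockout fasted mice, against 7.68, 7.85, 7.71 and 7.67 in knockout fed mice. It read 7.82, 7.73, 7.65, 7.44 and 7.55 in wild-type fasted mice, against 7.62, 7.71, 7.59 and 7.41 in wild-type fed mice. Knockout fasted mice were all lower than knockout fed mice, and the wild-type groups overlapped almost fully. Its differences of -0.26 (adjusted p = 0.204) in knockout mice, 0.06 (adjusted p = 0.739) in wild-type mice and -0.10 ± 0.07 (adjusted p = 0.464) over both did not pass the test.

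**Figure D2:**
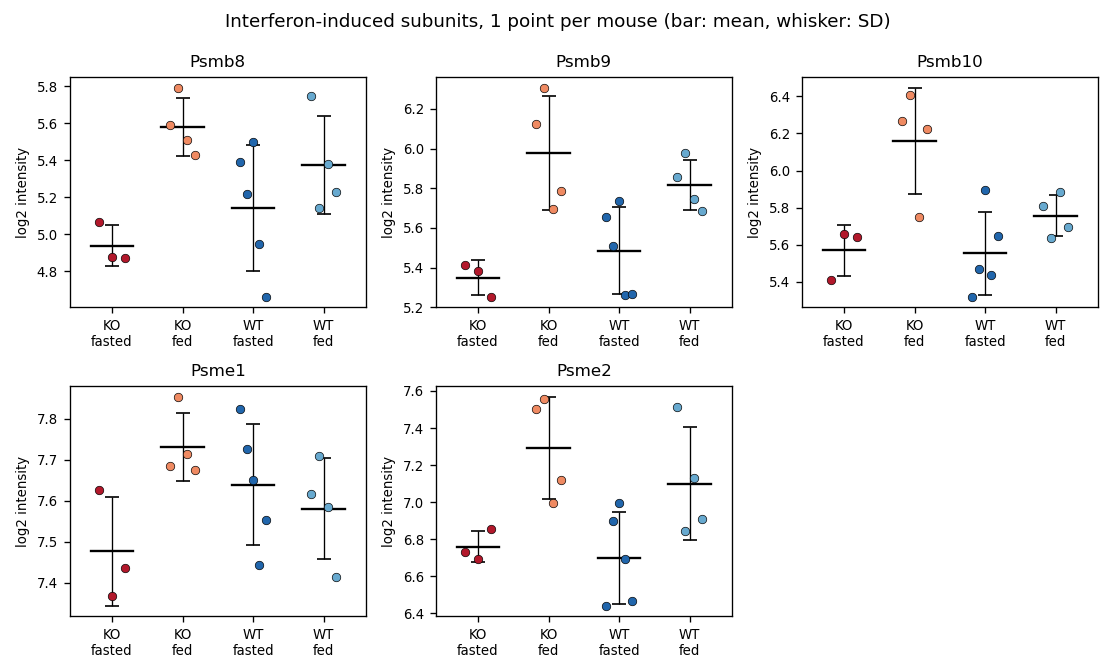
Log2 probe set intensity of the 5 interferon-induced subunits, 1 point per mouse, with each group's mean (bar) and SD (whisker); each panel has its own axis. Knockout fasted mice lie below every knockout fed mouse in all 5 panels, and wild-type fasted and fed mice overlap in all 5.

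The constitutive catalytic partners did not pass the test in either genotype. Psmb5, Psmb6 and Psmb7 carry the chymotrypsin-like, caspase-like and trypsin-like sites of the standard core. Their fasting differences in knockout mice were 0.03 for Psmb5, -0.0042 for Psmb6 and -0.11 for Psmb7. Set against its partner within each mouse, after centring each gene on its mean over the 16 arrays, Psmb8 over Psmb5 averaged -0.33 ± 0.16 in knockout fasted mice and 0.35 ± 0.12 in knockout fed mice (SD, n = 3 and 4), with no overlap. Psmb9 over Psmb6 averaged -0.24 ± 0.11 in knockout fasted and 0.38 ± 0.26 in knockout fed mice, again with no overlap. Psmb10 over Psmb7 averaged -0.11 ± 0.22 in knockout fasted and 0.38 ± 0.33 in knockout fed mice, with overlap through knockout fed mouse 3. In wild-type mice all 3 ratios overlapped between fasted and fed groups, with differences of -0.20, -0.32 and -0.07 in the same order. These ratios are descriptions and were not tested.

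Whether fasting acted differently in the 2 genotypes was tested as an interaction, the fasting difference in knockout mice minus that in wild-type mice. No member passed it, beside 0.01% of all genes. At an unadjusted p under 0.05 stood 4 of the 50 members (8%), beside 12.2% of all genes. That share was 15.1% over the 11961 genes at or above the dim limit. All 5 interferon-induced subunits had a negative interaction, with a median of -0.31 (Psme1, -0.31 ± 0.13) and adjusted p values from 0.353 for Psme1 to 0.842 for Psme2. The larger falls in knockout mice are therefore not shown to differ from those in wild-type mice.

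Among the standard core alpha subunits, fasting moved members in both directions. In wild-type mice Psma4, Psma1 and Psma3 fell, as did Psma8, the testis form of the Psma7 position. These 4 and Psmd9 were the 5 members called in wild-type mice, 1 upwards and 4 downwards, beside 9.22% of all genes, 3.3% upwards and 5.92% downwards. Of the 11961 genes at or above the dim limit, 1752 were called there. Psma7 rose over both genotypes. No core beta subunit was called in any comparison.

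Psma4, an alpha ring subunit, read 7.71, 7.92 and 7.83 in knockout fasted mice, against 7.98, 8.04, 8.15 and 8.18 in knockout fed mice. It read 7.90, 7.81, 7.56, 7.64 and 7.55 in wild-type fasted mice, against 8.21, 8.11, 8.31 and 8.05 in wild-type fed mice. Fasted mice lay below fed mice of their genotype without overlap in both genotypes, as 3 of the 50 members did in wild-type mice, beside 6.99% of all genes there. The difference was -0.26 (adjusted p = 0.179) in knockout mice, -0.48 ± 0.09 (adjusted p = 0.00194) in wild-type mice, and -0.37 ± 0.07 (adjusted p = 0.00105) over both.

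Psma1, another alpha ring subunit, read 8.08, 8.13 and 8.33 in knockout fasted mice, against 8.36, 8.44, 8.33 and 8.46 in knockout fed mice. In wild-type mice it read 8.12, 8.08, 8.09, 8.31 and 8.08 when fasted, against 8.57, 8.28, 8.63 and 8.45 when fed. The wild-type groups overlapped through fasted mouse 4 and fed mouse 2. The difference was -0.22 (adjusted p = 0.266) in knockout mice, -0.35 ± 0.08 (adjusted p = 0.0113) in wild-type mice and -0.28 ± 0.06 (adjusted p = 0.00559) over both. Without wild-type fed mouse 3 the wild-type difference was -0.30 and missed the threshold (adjusted p = 0.0525).

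Psma3, also of the alpha ring, read 8.27, 8.20 and 8.29 in knockout fasted mice, against 8.25, 8.29, 8.32 and 8.21 in knockout fed mice, which overlap. It read 8.32, 8.28, 8.14, 8.27 and 8.04 in wild-type fasted mice, against 8.80, 8.41, 8.41 and 8.38 in wild-type fed mice, which do not overlap. The difference was -0.011 in knockout mice and -0.29 ± 0.09 (adjusted p = 0.0456) in wild-type mice, and the interaction did not pass (adjusted p = 0.405). The other 2 probe sets of Psma3 gave -0.26 and -0.23 in wild-type mice, and the call was lost in 13 of the 16 single omissions, with differences of -0.33 to -0.19 and adjusted p of up to 0.147.

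Psma8 was dim, close to the limit of 2.79. It read 2.92, 2.69 and 2.72 in knockout fasted mice, against 2.92, 3.32, 2.98 and 2.99 in knockout fed mice. In wild-type mice it read 2.86, 2.48, 2.97, 3.00 and 2.63 when fasted, against 2.84, 3.30, 3.49 and 3.51 when fed. Both pairs of groups overlapped. Its difference was -0.50 ± 0.14 (adjusted p = 0.0327) in wild-type mice and -0.39 ± 0.11 (adjusted p = 0.0249) over both genotypes. Both calls were lost without wild-type fed mouse 3 or 4, the first also without wild-type fed mouse 2 or fasted mouse 2 or 5 and the second without knockout fasted mouse 2 or 3, with adjusted p of up to 0.118 and 0.0701.

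The regulatory particle, with its 6 ATPases, 3 other base subunits and 8 lid subunits, had no member called in any of the comparisons in the fit of 4 group means. Over both genotypes Psmd2 and Psmd14 passed without wild-type fasted mouse 1 (adjusted p = 0.0293 and 0.0367), and Psmd2 passed under quantile normalization (adjusted p = 0.0428). Its median fasting difference was 0.013 in knockout mice and -0.022 in wild-type mice. The 95% intervals of all 17 lay within a 1.5-fold change either way for fasting in knockout mice and over both genotypes. In wild-type mice 16 of 17 did, the exception being Psmd14, the lid's deubiquitinase, at -0.38 (adjusted p = 0.106; 0.0393 without wild-type fasted mouse 1). Over both genotypes 3 of the 17 (17.6%) had an unadjusted p under 0.05, beside 21.1% of all genes. That share was 32% over the 11961 genes at or above the dim limit. The 3 members were Psmd14 at -0.29 (adjusted p = 0.0928), Psmd2, a base scaffold that binds ubiquitin shuttles, at -0.17 (adjusted p = 0.0829), and Psmd12, a lid subunit, at 0.19 (adjusted p = 0.127). For the 14 standard core genes, the intervals of all lay within 1.5-fold in knockout mice and over both genotypes, and those of 13 in wild-type mice, with Psma4 outside. For the 5 interferon-induced subunits only Psme1 had an interval within 1.5-fold in knockout mice and over both genotypes.

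The residual SD of the fit had a median of 0.128 over the 14 standard core genes, 0.130 over the 17 regulatory particle genes and 0.209 over the 5 interferon-induced ones, beside 0.171 over the 11961 genes at or above the dim limit. The range of the 4 group means had a median of 0.17 for the standard core, 0.12 for the regulatory particle and 0.61 for the interferon-induced subunits, beside 0.27 for those 11961 genes. In a test of any difference among the 4 groups, 8 of the 50 members passed, beside 11.3% of all genes. Of the 11961 genes at or above the dim limit, 2161 passed. The 8 members were Psmd9, Psma4, Psma7, Psmb9, Psmb10, Psma1, Psmd10 and Psme2.

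Among the assembly chaperones, Psmd9 and Psmd10 moved in opposite directions. Both are chaperones that bind ATPases of the base while it is being assembled and leave the finished particle. Psmd9 had the largest fasting rise of the 50 members in both genotypes. The other 5 chaperones did not pass in any comparison of the fit described above, though Psmg2 passed in wild-type mice under some other settings.

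Psmd9 read 6.83, 6.75 and 6.97 in knockout fasted mice, against 6.18, 6.19, 6.08 and 6.03 in knockout fed mice. It read 7.42, 6.86, 7.06, 6.87 and 6.50 in wild-type fasted mice, against 6.12, 6.33, 6.27 and 6.17 in wild-type fed mice. All 8 fasted mice lay above all 8 fed mice. In wild-type mice it was the 1 member higher without overlap, beside 5.25% of all genes. The difference was 0.73 ± 0.15 (adjusted p = 0.00967) in knockout mice, 0.72 ± 0.13 (adjusted p = 0.00167) in wild-type mice and 0.73 ± 0.10 (adjusted p = 9.05e-05) over both, a 1.65-fold rise. The knockout call was lost only without knockout fasted mouse 3 among the 16 single omissions (adjusted p = 0.0581). It was also lost without knockout fed mice 1 and 4 together. The promoter of Psmd9 is shown as that of the member with the largest rise, in the same layout and source as above.
Psmd9, chr5:123227940-123228239, plus strand: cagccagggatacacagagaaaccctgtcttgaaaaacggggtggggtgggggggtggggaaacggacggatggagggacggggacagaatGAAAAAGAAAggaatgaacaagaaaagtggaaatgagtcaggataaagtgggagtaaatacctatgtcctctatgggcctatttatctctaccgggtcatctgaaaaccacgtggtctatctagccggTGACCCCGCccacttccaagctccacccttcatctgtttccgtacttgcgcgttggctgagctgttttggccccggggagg
Its capitals mark GAAAAAGAAA, the interferon-response-like form, with its first base at -159 from the start, and TGACCCCGC, a match to TGACNNNGC, at -31. TGACNNNGC is in 14% of all genes' promoters in the table and in 6 of the 42 members found there.

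Psmd10, known as gankyrin, read 5.96, 5.85 and 5.92 in knockout fasted mice, against 6.38, 6.08, 6.08 and 6.28 in knockout fed mice. In wild-type mice it read 5.92, 5.78, 6.00, 5.86 and 5.94 when fasted, against 6.02, 6.32, 6.13 and 6.04 when fed. The groups did not overlap in either genotype. The difference was -0.30 (adjusted p = 0.099) in knockout mice, -0.23 (adjusted p = 0.103) in wild-type mice and -0.26 ± 0.06 (adjusted p = 0.0102) over both. That call held in all 16 single omissions but not without knockout fed mice 1 and 4 together, at -0.20 (adjusted p = 0.0703). Psmg2, which with Psmg1 starts the alpha ring, had 0.08 in knockout mice and -0.34 (adjusted p = 0.0562) in wild-type mice. The wild-type fall of Psmg2 passed with arrays centred on the common median, with dim genes left out and with array weights. It also passed in 3 of the 16 single omissions, with adjusted p of 0.0362 to 0.17 over all 16, and missed the threshold under the other settings.

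Between genotypes, no member was called in fasted mice and none in fed mice. Of all genes, limma called 0.537% in fasted mice and 0.677% in fed mice, with 0.451% upwards in fed mice. At an unadjusted p under 0.05 stood 3 of the 50 members (6%) in fasted mice, beside 10.4% of all genes, and 5 (10%) in fed mice, beside 13.2% of all genes. Over the 11961 genes at or above the dim limit the shares were 13.1% in fasted and 18.1% in fed mice. The median knockout difference of the 50 members was -0.0060 in fasted mice, with -0.022 over all genes and -0.0055 over those 11961 genes. It was -0.037 in fed mice, with 0.0078 over all genes and -0.029 over those 11961. Averaged over feeding states, 1 member changed, the fallen Psma7, beside 0.963% of all genes upwards and 0.587% downwards. The knockout difference in fed mice and the fasting difference in knockout mice share the 4 knockout fed arrays.

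Psma7, an alpha ring subunit, read 7.77, 7.58 and 7.82 in knockout fasted mice, against 8.10, 7.99, 7.84, 7.84 and 7.82 in wild-type fasted mice. It read 7.45, 7.48, 7.49 and 7.45 in knockout fed mice, against 7.87, 7.64, 7.84 and 7.74 in wild-type fed mice. Knockout mice lay below wild-type mice without overlap in both feeding states, though in fasted mice by a gap of less than 0.01. In fed mice 2 of the 50 members were lower without overlap and 1, Psme3ip1, was higher, beside 3.18% and 3.53% of all genes. In fasted mice Psma7 was the 1 member lower without overlap, beside 4.44% of all genes. The knockout difference of Psma7 was -0.20 ± 0.08 when fasted (adjusted p = 0.418), -0.30 ± 0.08 when fed (adjusted p = 0.095) and -0.25 ± 0.06 (adjusted p = 0.0365) over both. Its fasting rise was 0.20 ± 0.06 over both genotypes (adjusted p = 0.0304). Centring each array on the common median raised the adjusted p past the threshold for both of these Psma7 calls, to 0.063 for the knockout fall and 0.0679 for the fasting rise. The knockout call was lost in 10 of the 16 single omissions and the fasting call in 7, with adjusted p of up to 0.131 and 0.0951.

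**Figure D3:**
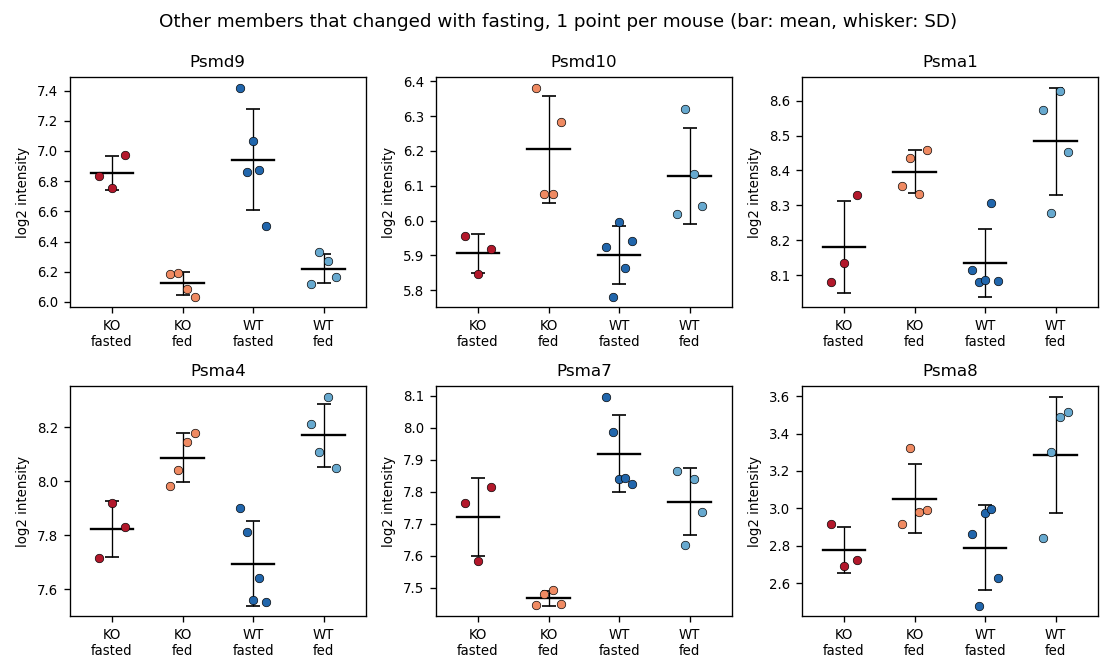
Log2 probe set intensity of the 6 other members called for fasting over both genotypes, 1 point per mouse, with each group's mean (bar) and SD (whisker); each panel has its own axis. Psmd9 is higher in every fasted mouse than in any fed mouse, Psmd10 and Psma4 are lower in fasted mice of each genotype, and Psma7 is lower in knockout mice than in wild-type mice of the same feeding state.

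All 5 interferon-induced subunits had a positive knockout difference in fed mice, with a median of 0.19. Psmb10 had the largest, 0.40 ± 0.14 (adjusted p = 0.196), with 3 of 4 knockout fed mice above every wild-type fed mouse; without knockout fed mouse 3 it was 0.54 (adjusted p = 0.0399). In fasted mice the median was -0.14, and none of the 5 passed. Psmf1, an inhibitor of the core in vitro, had the smallest unadjusted p of the 50 for knockout in fasted mice, at 0.31 ± 0.11 (adjusted p = 0.303). The activators Psme3 and Psme4 had knockout differences between -0.11 and 0.03 in either feeding state.

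**Figure D4:**
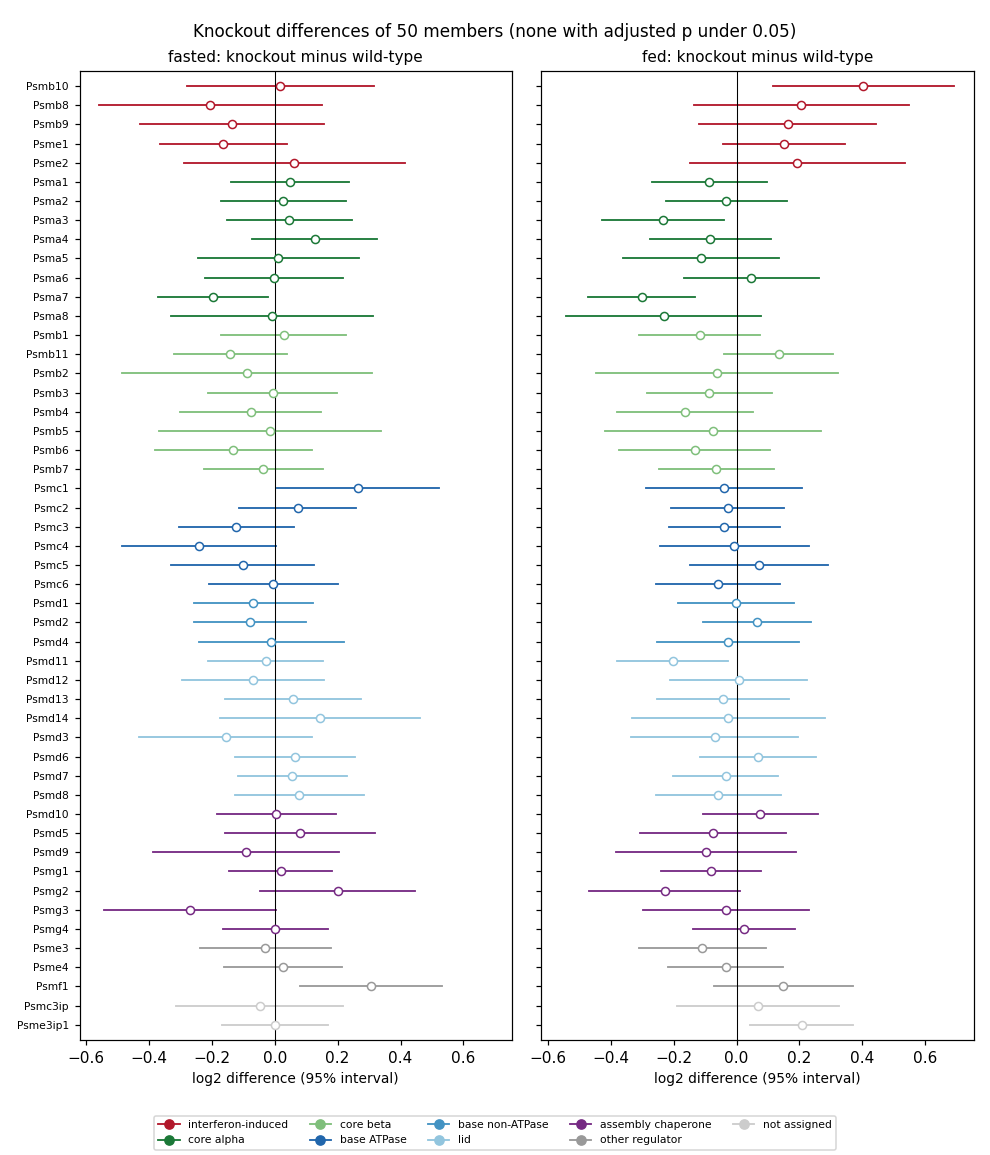
Log2 difference between knockout and wild-type mice for the 50 members, in fasted mice (left) and fed mice (right), ordered and coloured by role. Points are limma estimates and lines are 95% intervals; no member has an adjusted p under 0.05. Psmb10 in fed mice, at 0.40, and Psmf1 in fasted mice, at 0.31, lie farthest to the right.

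Partners of the particle outside the 50 were read from a list of 28 symbols, of which 16 were measured. Nfe2l1, the transcription factor that raises proteasome genes when proteasome activity falls, averaged 7.15 in knockout fasted and 6.97 in knockout fed mice, a difference of 0.19 (adjusted p = 0.353). In wild-type mice it rose by 0.50 ± 0.08 (adjusted p = 0.000782), with a mean of 7.31 in wild-type fasted and 6.81 in wild-type fed mice; the interaction did not pass (adjusted p = 0.328). Over both genotypes 1 of the 16 rose, Nfe2l1, and 2 fell, beside 4.48% of all genes upwards and 6.39% downwards. The 2 were Pomp, the maturation factor of the core, at -0.28 ± 0.07 (adjusted p = 0.0183), and Ubqln1, a ubiquitin shuttle, at -0.21 ± 0.06 (adjusted p = 0.0412). None of the 16 changed between genotypes.

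The MHC class I peptide-loading genes, which act after the interferon-induced proteasome, had 11 of 14 listed members measured. None rose with fasting. In knockout mice 2 fell, beside 1.8% of all genes, and both are chaperones that serve secretory proteins in general, Calr and Canx, at -0.49 and -0.29. In wild-type mice 3 fell, beside 5.92% of all genes, which were Calr and Canx, at -0.65 and -0.39, and Pdia3, a further such chaperone, at -0.61. Over both genotypes 4 fell, beside 6.39% of all genes. The peptide transporter gene Tap1 fell by 0.43 ± 0.13 over both genotypes (adjusted p = 0.041), with -0.71 in knockout mice (adjusted p = 0.053) and -0.15 in wild-type mice. In knockout mice Tap2 and Tapbp had -0.43 (adjusted p = 0.0632) and -0.37 (adjusted p = 0.118), and B2m, the MHC light chain, had -0.013. Interferon pathway regulators in the list did not pass: Irf1 had -0.54 ± 0.39 in knockout mice and Nlrc5 0.37 ± 0.12 in wild-type mice (adjusted p = 0.0667). These values belong to different genotypes and are not set against each other.

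Kupffer cell and macrophage markers stood highest in knockout fed mice, and acute phase genes stood high in 3 of those 4 mice. A list's summed level in a mouse was taken by centring each gene on its own 16-array mean and averaging these log2 deviations. For the 5 interferon-induced subunits it ranged from -0.26 to -0.20 in knockout fasted mice, 0.38, 0.53, 0.08 and 0.19 in knockout fed mice 1 to 4, -0.34 to 0.10 in wild-type fasted mice and -0.07 to 0.25 in wild-type fed mice. For 8 Kupffer cell and macrophage markers it ranged from -0.06 to 0.19 in knockout fasted mice, 0.35 to 0.47 in knockout fed mice, -0.55 to 0.08 in wild-type fasted mice and -0.23 to -0.04 in wild-type fed mice, so knockout fed mice stood above all others. Of the 8, Clec4f and Cd5l rose in knockout fed against wild-type fed mice, by 0.88 and 0.85, beside 0.451% of all genes upwards. Clec4f fell with fasting in knockout mice, by 0.46, beside 1.8% of all genes downwards. Over both genotypes 2 of the 8 fell with fasting, beside 6.39% of all genes. Over both feeding states 5 of the 8 rose in knockout mice, beside 0.963% of all genes. For 13 acute phase genes it was 1.26, -0.32, 0.61 and 2.27 in knockout fed mice 1 to 4, and between -0.80 and 0.26 in all other mice. Knockout fed mouse 2, with the highest level of the interferon-induced subunits, had the lowest acute phase level of those 4. Of those 13, Saa1 fell with fasting in knockout mice, by 3.81 ± 0.95 (adjusted p = 0.0324), beside 1.8% of all genes downwards. In wild-type mice 2 of the 13 rose with fasting and 1 fell, beside 3.3% of all genes upwards and 5.92% downwards. Over both genotypes 2 of the 13 fell and none rose, beside 6.39% of all genes downwards. None of the 13 changed with knockout in fed mice. Without knockout fed mice 1 and 4, which had the highest acute phase levels, the fasting differences in knockout mice were -0.71 for Psmb8, -0.65 for Psmb9 and -0.51 for Psmb10, with adjusted p of 0.153, 0.0926 and 0.254 in the smaller fit. Over both genotypes and without those 2 mice, Psmb9, Psmb8 and Psme2 still passed (adjusted p = 0.00892, 0.0429 and 0.043) and Psmb10 did not, at -0.35 (adjusted p = 0.0719). The part of the macrophage markers and of the acute phase genes in the fall of the interferon-induced subunits was not tested.

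None of the 10 T and NK cell, 4 B cell, 7 neutrophil or 6 hepatocyte markers measured changed in either fasting comparison or either genotype comparison. Hepatocyte markers ranged over -0.11 to 0.06 across all mice. Wild-type fasted mouse 5 had a pancreas marker level of 2.16, beside -0.33 to 0.24 in the other 15 mice. That mouse also had the lowest level of the 43 members outside the interferon-induced and unassigned ones, at -0.16, and wild-type fasted mouse 1 the highest, at 0.17. Ppard itself averaged 4.48 in knockout fasted, 4.71 in knockout fed, 4.56 in wild-type fasted and 5.10 in wild-type fed mice. Knockout minus wild-type was -0.08 for Ppard when fasted (adjusted p = 0.908) and -0.39 when fed (adjusted p = 0.266). Since the deleted part is not given, this probe set checks nothing about the genotype labels.

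**Figure D5:**
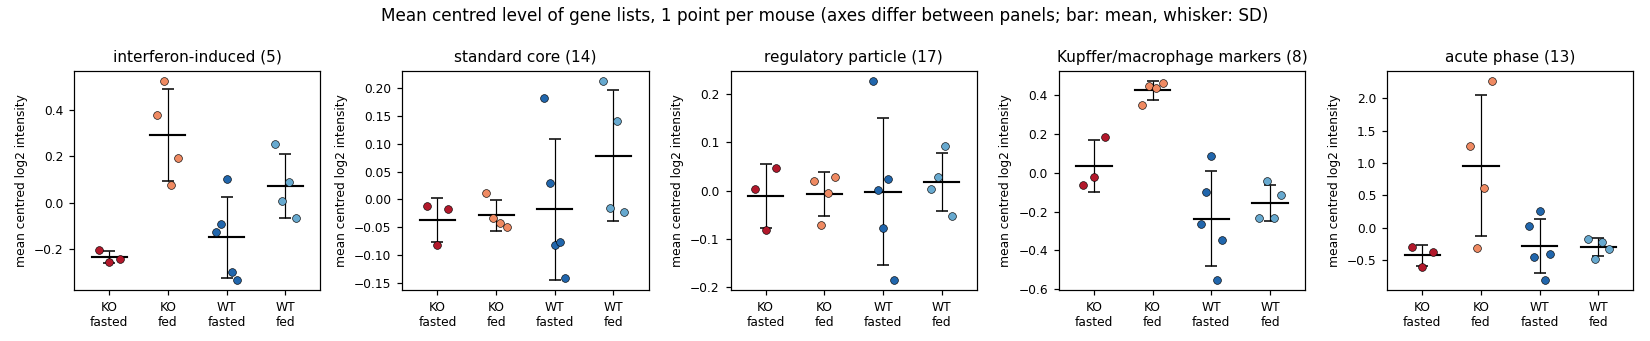
Mean centred log2 intensity of 5 gene lists, 1 point per mouse, with each group's mean (bar) and SD (whisker); panel titles give the number of genes and the axes differ. The interferon-induced subunits and the Kupffer cell and macrophage markers have their highest group mean in knockout fed mice, where the macrophage markers range from 0.35 to 0.47, while the standard core and regulatory particle lie between -0.19 and 0.23 in all mice.

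Promoters of 42 of the 50 members were in the RefSeq table, among them 26 core alpha, core beta and regulatory particle genes and all 5 interferon-induced ones. The 26 include Psmb11, the thymus form, which the standard core genes above leave out. The motif CCGGAAG was in 16 of the 42 (38.1%), beside 9.93% of all genes with a promoter in the table. It was in 10 of those 26 genes and in none of the 5 interferon-induced ones. CCAAT was in 16 of the 42, also 38.1%, beside 41.1% of all genes. The full proteasome antioxidant element was in none, beside 0.0999% of all genes. These are counts of letters in windows of 300 bases and carry no test.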

How the data were processed

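RNA from 16 mouse livers was measured, 1 array per mouse. The authors deposited normalized probe set intensity values, made with RMA per the submitters' processing notes; its version and the array's genome build were not given in the sources used here. Values were linear, with array medians of 8.08 to 8.61, and log2 was taken here. Array intensities compress large differences, so a fold may be understated. Of 35519 probe sets, 21780 had 1 gene symbol, 1605 several and 12134 none. Only those with 1 symbol were used, taking the one with the highest mean per gene; 5 members had several. All 16 arrays entered 1 limma 3.58.1 fit (R 4.3.3, lmFit and eBayes, no trend) of 4 group means, which left 12 residual degrees of freedom and gave 4.55 prior ones. Tests were two-sided, with Benjamini-Hochberg adjustment over 19935 genes within each comparison. The fit was tested on simulated data.

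All members could be named, and values per mouse are given for the 5 interferon-induced members and for up to 4 changed members per role in a comparison; genes outside the members were named from fixed lists where changed or defining. Psmg2, Psmd14, Psmd2, Psmd12, Psmf1 and some list genes that did not change were singled out after their values were seen. The members and lists were chosen with earlier results of these data known. Replicates are labelled biological, so each stands for 1 mouse; the series text gives 4 to 5 mice a group, and whether a knockout fasted array was left out is not known. The alternatives tried were quantile normalization, centring arrays, leaving out dim genes, a gene's median probe set value or every probe set, array weights, a replicate block, a robust fit with an intensity trend, 2 groups alone in the fit, leaving out each array, and leaving out knockout fed mice 1 and 4 together.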

Additional observations from a re-analysis of the deposited data

Results flagged for a closer look

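Within groups of 4 or 5 mice, a single mouse stood apart from the rest in 4 of the 150 group and member combinations examined, by the gap to its nearest neighbour as a share of the group's range; chance alone gives about 1 in 20. Psma1 read 8.31 in wild-type fasted mouse 4, with its next at 8.12 and its lowest at 8.08. Psma3 read 8.80 in wild-type fed mouse 1, with its next at 8.41 and its lowest at 8.38. Without that mouse the fasting difference of Psma3 in wild-type mice was -0.19 (limma adjusted p = 0.147). Psmd2 read 9.08 in knockout fed mouse 4, with its next at 8.99 and its lowest at 8.98. Psmg4 read 3.36 in knockout fed mouse 1, with its next at 3.45 and its highest at 3.46.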

How the results depend on the processing

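The number of members called was compared over all alternatives with limma, and no result for a member turned its sign while past the threshold. Over all members, comparisons and alternatives, 77 results lost a call, 23 gained one and 8486 did neither. Most of the 8486 were not called in the main fit and so had no call to lose. They are therefore no measure of how well the calls held. Over both genotypes, fasting called 10 members, with 9 to 11 under the other settings, 7 to 12 over single omissions and 7 without knockout fed mice 1 and 4. For fasting in knockout mice (3 members) single omissions gave 0 to 4, and leaving out knockout fed mice 1 and 4 gave 0; the lowest count came without knockout fasted mouse 3. The fit of the 2 groups alone gave 2, losing Psmb9 and Psmb10 and gaining Psmb8. For fasting in wild-type mice (5 members) the fit of the 2 groups alone gave 3, losing Psma3 and Psma8, and single omissions 2 to 6. For the mean knockout effect (1 member), centring the arrays gave 0, an intensity trend with robust variance 0, single omissions 0 to 1, and leaving out knockout fed mice 1 and 4 gave 0. For any difference among the 4 groups (8 members), single omissions gave 5 to 9, and leaving out knockout fed mice 1 and 4 gave 3. For knockout in fed mice (0 members), single omissions gave 0 to 1, the 1 being Psmb10 without knockout fed mouse 3. For knockout in fasted mice and for the interaction the count stayed at 0. Apart from omissions, which test fewer mice, the cause of these shifts was not tested.

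The sample titles number the replicates and do not say whether the numbers pair the mice. Over 21 pairs of same-numbered mice the correlation of deviations from the group means was -0.22 to 0.21, with a median of 0.082 and 5 over 0.1. Such values do not settle whether the numbers carry a pairing. With the number as a replicate block the counts were 10 for fasting over both genotypes, 3 in knockout and 4 in wild-type mice, 1 for the mean knockout effect, 7 for any difference and 0 elsewhere. The members called were not all the same: the block lost Psmb10 and gained Psmb8 in knockout mice, lost Psma3 and Psma8 and gained Psmd14 in wild-type mice, and lost Psma8 and gained Psmd14 over both genotypes. Groups of 3 to 5 arrays limit how small a difference can be called.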

Other observations

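Where a member had several probe sets, they mostly gave like values. For Psmc1, a base ATPase, they did not: the fasting difference in knockout mice was 0.27 in the probe set with the higher mean and 0.02 in the other, and the knockout difference in fasted mice was 0.27 and 0.06. The 2 probe sets of Psmd2 gave -0.24 and -0.18 for fasting in knockout mice, and those of Psma5 gave 0.20 and 0.16. The 3 probe sets of Psma3 gave -0.29, -0.26 and -0.23 for fasting in wild-type mice. Which of a gene's probe sets could also bind a near-identical copy of the gene was not examined.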
